A study of Mus musculus with 20 samples.

Results

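The transcription factor NRF2 (gene Nfe2l2), its repressor KEAP1 (gene Keap1) and 8 antioxidant and detoxifying genes of the NRF2 pathway were followed in mouse liver with and without hepatocyte Hsd17b12. The 10 genes, Nfe2l2, Keap1, Srxn1, Txnrd1, Nqo1, Cbr3, Ugdh, G6pdx, Hmox1 and Slc7a11, were chosen by gene symbol from a count table of 20914 genes. Of these genes, 9 had enough counts to be among the 13670 genes tested, and Slc7a11, above the filter's minimum in too few mice, was not. Liver RNA of 20 male mice of the strain LiB12cKO, aged 8 weeks, was sequenced from the left lateral lobe. The knockout (KO) group held 10 mice of genotype HSD17B12lox/lox;Alb-CreCre/WT, and the wild-type (WT) group held 10 mice of genotype HSD17B12lox/lox;Alb-CreWT/WT. Both groups thus carried the floxed gene, and only KO mice carried Cre recombinase, which the albumin promoter drives in hepatocytes. Effects of Cre and of the deletion cannot be told apart in this design. Hsd17b12 encodes a reductase of the fatty acid elongation cycle.

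NRF2 is a bZIP transcription factor that KEAP1 holds for ubiquitination by a cullin 3 ligase and for degradation. Electrophiles and oxidants modify cysteines of KEAP1, NRF2 then escapes degradation, pairs with a small MAF protein and binds antioxidant response elements near its target genes. In liver, these targets include enzymes that reduce quinones and carbonyls, repair oxidized peroxiredoxins, supply NADPH and cystine, and feed glucuronidation. NRF2 is controlled largely at the protein level, which RNA counts do not measure.

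The promoter windows of the RefSeq table, on build GRCm38.p6, are shown first because most of the genes share a known regulator. Windows run from 250 bases before to 50 bases after each RefSeq start and were matched by symbol for 9 of the 10 genes, all but Hmox1. The core of the antioxidant response element, TGACNNNGC, was searched on both strands. It occurred in the windows of 5 of 9 genes, namely Srxn1, Ugdh, Txnrd1, G6pdx and Nfe2l2, against 14.0% of all 27025 genes with a window. The AP-1 element TGACTCA, also searched on both strands, occurred in 1 of the 9, Srxn1, against 5.95% of all genes. A gene can have several windows, and these 9 genes have 11. Counted by window, TGACNNNGC occurred in 5 of the 11, against 12.4% of all 32851 windows. TGACTCA occurred in 1 of the 11, against 5.20%. The 5 windows with a match are printed from 5′ to 3′ on the strand of the gene, with matches to either element in capitals. No match to one element overlapped a match to the other in them.
Srxn1 (chr2:152105274-152105573, plus strand): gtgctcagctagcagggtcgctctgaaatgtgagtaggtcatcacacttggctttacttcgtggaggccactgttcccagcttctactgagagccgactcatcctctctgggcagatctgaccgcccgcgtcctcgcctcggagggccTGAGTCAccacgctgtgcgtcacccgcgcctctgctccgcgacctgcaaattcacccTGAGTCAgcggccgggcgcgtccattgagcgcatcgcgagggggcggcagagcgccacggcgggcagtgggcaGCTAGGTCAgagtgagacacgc
Ugdh (chr5:65435793-65436092, minus strand): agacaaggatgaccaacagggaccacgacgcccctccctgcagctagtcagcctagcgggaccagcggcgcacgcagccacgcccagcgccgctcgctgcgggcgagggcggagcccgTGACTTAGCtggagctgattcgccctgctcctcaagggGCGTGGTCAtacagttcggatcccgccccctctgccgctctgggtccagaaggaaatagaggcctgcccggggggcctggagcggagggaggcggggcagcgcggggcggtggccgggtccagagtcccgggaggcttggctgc
Txnrd1 (chr10:82858956-82859255, plus strand): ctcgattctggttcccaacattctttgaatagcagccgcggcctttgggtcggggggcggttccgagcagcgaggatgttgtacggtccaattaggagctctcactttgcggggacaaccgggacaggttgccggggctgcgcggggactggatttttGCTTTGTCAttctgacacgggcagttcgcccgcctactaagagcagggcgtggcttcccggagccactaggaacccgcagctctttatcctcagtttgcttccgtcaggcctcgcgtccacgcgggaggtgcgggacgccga
G6pdx (chrX:74428831-74429130, minus strand): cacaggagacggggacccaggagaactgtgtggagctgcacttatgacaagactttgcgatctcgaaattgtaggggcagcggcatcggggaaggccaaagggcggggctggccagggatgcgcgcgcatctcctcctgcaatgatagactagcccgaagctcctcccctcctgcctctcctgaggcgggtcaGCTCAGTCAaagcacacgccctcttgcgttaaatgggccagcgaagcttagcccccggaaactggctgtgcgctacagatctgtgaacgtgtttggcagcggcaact
Nfe2l2 (chr2:75704614-75704913, minus strand): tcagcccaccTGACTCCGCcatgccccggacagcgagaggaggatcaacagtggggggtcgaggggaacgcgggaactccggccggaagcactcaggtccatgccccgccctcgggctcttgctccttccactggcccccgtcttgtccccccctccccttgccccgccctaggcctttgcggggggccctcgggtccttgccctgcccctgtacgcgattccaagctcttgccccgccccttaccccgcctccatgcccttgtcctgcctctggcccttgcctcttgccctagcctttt
Counted from the RefSeq start, Srxn1 had TGACTCA from -102 to -96 and from -45 to -39, and TGACNNNGC from 29 to 37. The RefSeq start of Srxn1 lies upstream of the gene's start in the deposited annotation. Ugdh had TGACNNNGC at 2 places, from -132 to -124 and from -94 to -86. Txnrd1 has 3 RefSeq windows, and the middle one held the element from -92 to -84. G6pdx had it from -57 to -49 and Nfe2l2 from -240 to -232. These matches describe letters in a window and are no measurement of binding.

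Levels below are CPM, fragments per 1000000 fragments assigned to the tested genes, after division by the TMM factor. TMM sets libraries to a common scale by a trimmed mean of gene ratios. Fold changes are log2, KO relative to WT, and adjusted p-values come from edgeR's quasi-likelihood test with Benjamini-Hochberg adjustment over all 13670 tested genes. Hsd17b12 averaged 47.8 ± 2.39 CPM in KO livers and 152 ± 18.5 CPM in WT livers (SD, n = 10 each), a KO level of 31.5% of WT with TMM. Its log2 fold change was -1.66 with TMM and -1.19 with scaling by library size alone. Assigned totals ran from 16693195 to 24895938 fragments in KO mice and from 19676907 to 29124124 in WT mice. Multi-mapping fragments, which the authors counted, were 2.09 to 8.46% of fragments in KO and 3.38 to 14.1% in WT libraries, and the part of this difference in the results was not tested. Much of the table differed between the genotypes, with 28.2% of tested genes called higher and 31.0% called lower at an adjusted p under 0.05. Scaling matters here: TMM factors were 1.05 to 1.24 in KO and 0.79 to 0.97 in WT libraries. Scaling by library size alone shifted the median of all tested genes by 0.47, to a log2 fold change of 0.44 against -0.02 with TMM, and it called 68.4% of genes higher and 6.71% lower.

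Some markers of liver cell types also moved. Their counts are to be read against all tested genes, of which 28.2% were higher and 31.0% lower with TMM. With library size alone these shares of all tested genes were 68.4% and 6.71%. All 9 hepatocyte markers fell with TMM, among them Alb at 35508 ± 5115 CPM in KO and 59429 ± 9619 CPM in WT livers, and 6 were lower and 1 higher with library size alone. The summed hepatocyte markers were 49199 to 64217 CPM in KO and 83420 to 114487 CPM in WT livers. Of 9 Kupffer cell markers 7 rose (sums of 298 to 575 CPM in KO and 152 to 311 CPM in WT), and all 9 tested markers of recruited or lipid-associated macrophages rose (105 to 373 CPM in KO and 45.4 to 73.3 CPM in WT). Among these macrophage markers Gpnmb, at 7.66 ± 6.01 CPM in KO and 0.332 ± 0.191 CPM in WT livers, passed the filter on low counts through its levels in KO mice. Of 8 stellate cell and fibroblast markers 6 rose, with sums of 270.5 to 496 CPM in KO and 148 to 297 CPM in WT. Of 7 sinusoidal endothelial markers 3 rose (42.9%), with sums of 222 to 279 CPM in KO and 151 to 288 CPM in WT. With library size alone 8 Kupffer cell, 9 macrophage, 6 stellate cell and fibroblast and 7 endothelial markers were higher and 0 lower, and without KO_391 and WT_441 5 endothelial markers rose with TMM. Of 5 cholangiocyte markers 2 rose (40%) and 1 fell (20%) with TMM, against 3 higher and 0 lower with library size alone (48.8 to 189 CPM in KO and 24.1 to 56.2 CPM in WT). Spp1 stands in both this list and that of recruited or lipid-associated macrophages. Without it the cholangiocyte sums were 5.79 to 12.5 CPM in KO and 8.08 to 17.6 CPM in WT, and those macrophage sums were 55.2 to 205 CPM in KO and 22.4 to 49.2 CPM in WT. Of 4 red blood cell markers 1, Alas2, fell (65.3 to 236 CPM in KO and 187 to 583 CPM in WT). Neutrophil markers (1.01 to 5.85 CPM in KO and 0.245 to 4.44 CPM in WT) and T, NK and B cell markers (1.87 to 16.8 CPM in KO and 1.05 to 13.3 CPM in WT) each had 2 tested genes and 0 calls, and Ly6g was under 0.1 CPM in every mouse. The part of cell composition in the results on the 10 genes was not tested, and in bulk tissue a change in the number of cells of a type cannot be told apart from a change in RNA per cell.

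Of the 9 tested genes of the pathway, 8 were higher in KO livers and 0 were lower, against 28.2% and 31.0% of all tested genes. Hmox1 was the exception. The genes were chosen with earlier results of these data known, so such shares describe them and are no independent test. The median log2 fold change of the 9 was 0.79 with TMM, where that of all genes was -0.02, and 1.26 with library size alone, where that of all genes was 0.44. Library size alone called all 9 higher, where it called 68.4% of all tested genes higher. Their fold changes were then 0.81 to 3.87. In 7 of the 9 every KO mouse lay above every WT mouse, which held for 7.10% of all tested genes. A rise of at least 2-fold was called in 4 of the 9, namely Cbr3, Srxn1, Nqo1 and Ugdh, against 7.69% of all tested genes. Cbr3, which stands in each of these counts, passed the filter on low counts through its levels in KO mice.

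**Figure D1:**
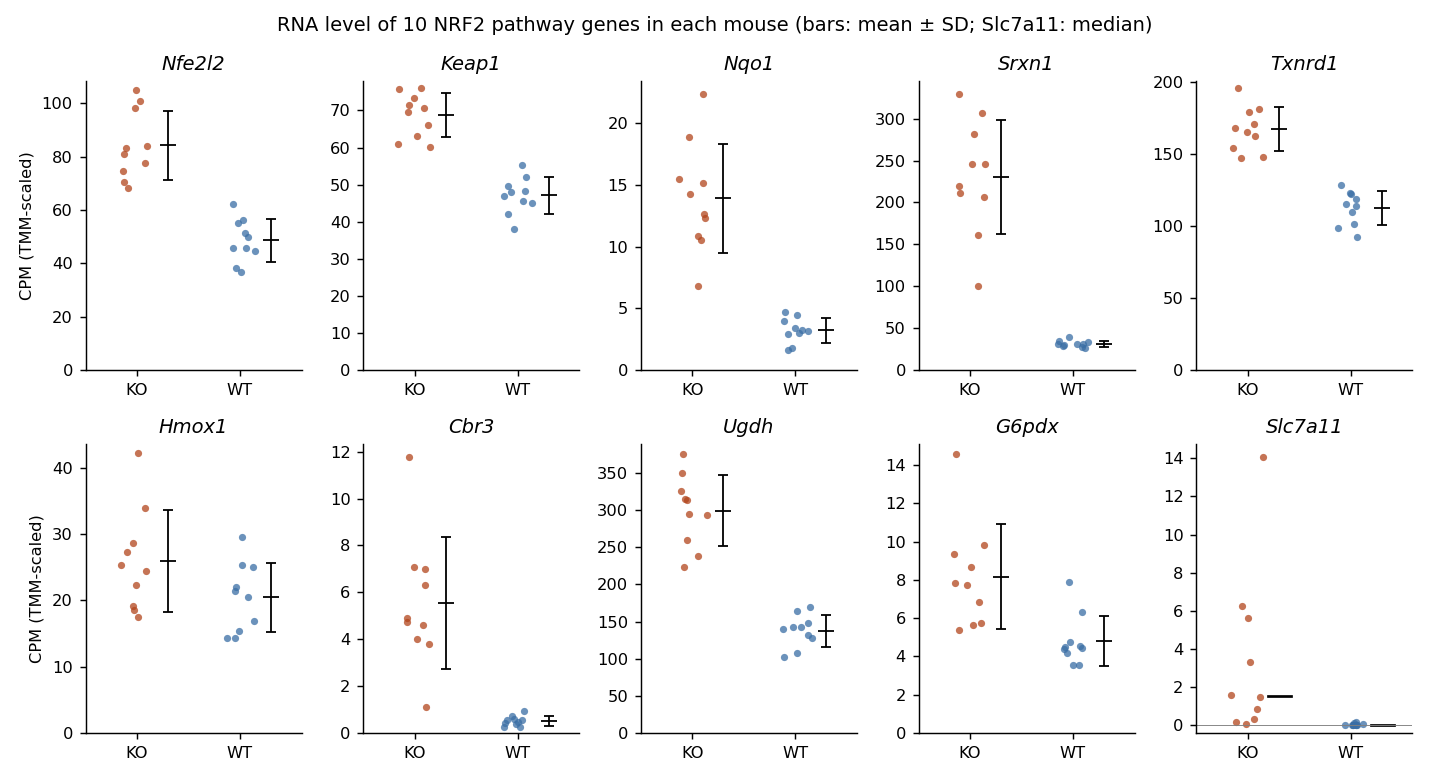
CPM (TMM-scaled) of each of the 10 genes on the y axis, 1 panel per gene on a linear axis, with 10 KO mice left and 10 WT mice right as points and bars for mean ± SD, or the median for Slc7a11. Groups are apart for Nfe2l2, Keap1, Nqo1, Srxn1, Txnrd1, Cbr3 and Ugdh, and overlap for Hmox1, G6pdx and Slc7a11.

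Nfe2l2, the gene of NRF2 itself (Entrez gene 18024, mm10 chr2:75675519-75704641, minus strand), was expressed at 68.4 to 105 CPM in KO livers with a median of 82.0, against 36.9 to 62.3 CPM with a median of 47.7 in WT livers. The lowest KO mouse was thus above the highest WT mouse. KO livers averaged 84.3 ± 12.9 CPM and WT livers 48.6 ± 8.01 CPM (SD, n = 10 each), a log2 fold change of 0.79 (SE 0.10, edgeR adjusted p = 4.56e-07). Keap1, the substrate adaptor that presents NRF2 to its ligase (Entrez gene 50868, chr9:21229730-21239332, minus strand), also rose. Its level was 60.2 to 76.0 CPM in KO livers with a median of 70.2, against 38.0 to 55.2 CPM with a median of 47.5 in WT livers, again without overlap. Its log2 fold change was 0.55 (SE 0.06, edgeR adjusted p = 2.02e-07). The gene Gm16754 overlaps 510 bases of Keap1 exons on the opposite strand. The sources used here do not give the strand setting of the counting, so fragments of the 2 genes may not be told apart; Gm16754 averaged 1.91 CPM in KO and 1.33 CPM in WT livers.

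The ratio of Nfe2l2 to Keap1 RNA within a mouse does not depend on the scaling of its library. Its log2 value, from RPKM, averaged 1.14 ± 0.20 in KO livers (0.89 to 1.495) and 0.89 ± 0.28 in WT livers (0.51 to 1.43, n = 10 each). The difference was 0.25 (SE 0.11, two-sided permutation p = 0.0366, 100000 resamples), and 1 KO mouse lay above all WT mice. Leaving out single mice gave differences of 0.21 to 0.31, and p was above 0.05, up to 0.0728, when any 1 of 9 mice was left out. These were KO_404, KO_416, KO_425, WT_390, WT_408, WT_409, WT_415, WT_427 and WT_429, where the differences were 0.21 to 0.24.

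The related lists below are to be read against all tested genes, of which 28.2% were higher and 31.0% lower with TMM, and 68.4% and 6.71% with library size alone. These lists too were chosen with earlier results of these data known. Among 13 tested genes that control NRF2 or share its binding partners, 6 rose (46.2%) and 2 fell (15.4%), with a median of 0.18 with TMM and 0.64 with library size alone, where 12 were higher and 0 lower. Sqstm1, the autophagy receptor p62 that binds KEAP1, averaged 1075 ± 251 CPM in KO and 475 ± 33.4 CPM in WT livers, a log2 fold change of 1.18 (edgeR adjusted p = 1.38e-08). The small MAF genes Mafk and Maff, whose products pair with NRF2, rose by 1.09 (adjusted p = 9.5e-09) and 1.48 (adjusted p = 0.000147) in edgeR. The related factor Nfe2l1 rose by 0.32 (adjusted p = 0.00064). Btrc, a ubiquitin ligase adaptor that also recognizes NRF2, had a log2 fold change of -0.26 with TMM (adjusted p = 0.00112) but 0.21 with library size alone (adjusted p = 0.019). Bach2, of the repressor family that competes for small MAF partners, had -0.42 with TMM (adjusted p = 0.0248) and 0.03 with library size alone (adjusted p = 0.855). Exons of Bach2 overlap those of Bach2os by 396 bases.

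Srxn1 encodes sulfiredoxin, which restores over-oxidized peroxiredoxins, and its promoter window held matches to both elements. The gene (Entrez gene 76650, chr2:152105730-152111353, plus strand) was at 100.3 to 330 CPM in KO livers with a median of 233, against 26.5 to 40.0 CPM with a median of 30.8 in WT livers. The lowest KO mouse, KO_391, was above the highest WT mouse, WT_409. The log2 fold change was 2.88 (SE 0.16, edgeR adjusted p = 9.71e-12), rank 141 of 13670 tested genes from the largest rise down. KO mice varied more than WT mice, with a coefficient of variation of 29.4% in KO and 12.4% in WT. Txnrd1 encodes cytosolic thioredoxin reductase, a selenoprotein that passes electrons from NADPH to thioredoxin (Entrez gene 50493, chr10:82833951-82897724, plus strand). It was at 147 to 196 CPM in KO livers with a median of 167, against 92.8 to 128 CPM with a median of 115 in WT livers. Its groups did not overlap either, at a smaller log2 fold change of 0.57 (SE 0.07, edgeR adjusted p = 1.92e-07).

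Among 14 thioredoxin, peroxiredoxin and sestrin genes 5 rose (35.7%) and 6 fell (42.9%), with a median of 0.07; with library size alone 11 were higher and 0 lower, with a median of 0.54. Sesn2, a stress-induced sestrin, rose by 1.33 (edgeR adjusted p = 3.31e-11), at 12.9 ± 1.63 CPM in KO and 5.14 ± 0.62 CPM in WT livers. Sesn3 rose by 0.99 (adjusted p = 0.000161). Cytosolic thioredoxin Txn1 rose by 0.39 (adjusted p = 0.00045) and its inhibitor Txnip by 0.78 (adjusted p = 0.000619), where 606 bases of Txnip exons overlap Gm15441. Mitochondrial thioredoxin Txn2 had -0.41 with TMM (adjusted p = 1.19e-06) and 0.06 with library size alone. Prdx4, a peroxiredoxin of the secretory pathway, had -0.41 with TMM (adjusted p = 6.72e-05) and 0.06 with library size alone.

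Nqo1 encodes a quinone reductase that is widely used as a readout of NRF2 (Entrez gene 18104, chr8:107388225-107403205, minus strand). It was at 6.79 to 22.4 CPM in KO livers with a median of 13.5, against 1.63 to 4.74 CPM with a median of 3.21 in WT livers. All KO mice lay above all WT mice, and the log2 fold change was 2.10 (SE 0.20, edgeR adjusted p = 1.74e-08). Cbr3, a carbonyl reductase of the same detoxifying branch (Entrez gene 109857, chr16:93683219-93690991, plus strand), had the highest fold of the 9 tested genes and low counts in WT livers. It was at 1.11 to 11.8 CPM in KO livers with a median of 4.82, against 0.234 to 0.922 CPM with a median of 0.505 in WT livers. The WT libraries held 103 Cbr3 fragments in all, and KO libraries 1372. Each KO library held 28 to 252 of them and each WT library 4 to 20. Cbr3 thus passed the filter on low counts through its levels in KO mice. Its fold change on the log2 scale was 3.39 (SE 0.32, edgeR adjusted p = 1.26e-08), rank 89 of the tested genes. With limma on log2(RPKM + 1), where the pseudocount is above the WT levels, it was 1.89 and past the threshold.

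Ugdh oxidizes UDP-glucose to UDP-glucuronate, the sugar donor of glucuronidation (Entrez gene 22235, chr5:65413221-65435842, minus strand). It was at 224 to 376 CPM in KO livers with a median of 304, against 103 to 170 CPM with a median of 141 in WT livers. Without overlap between the groups, the log2 fold change was 1.12 (SE 0.10, edgeR adjusted p = 6.01e-09). Its promoter window was the one with 2 matches to TGACNNNGC. Of 9 tested enzymes next to Ugdh or related to Nqo1 and Cbr3, 3 rose (33.3%) and 2 fell (22.2%), with a median of 0.01; with library size alone 8 were higher and 0 lower, with a median of 0.48. The carbonyl reductase Cbr1 rose by 0.85 (edgeR adjusted p = 1.17e-05), at 101 ± 26.0 CPM in KO and 55.9 ± 10.4 CPM in WT livers. Ugcg, which uses UDP-glucose to make glucosylceramide, rose by 0.59 (adjusted p = 0.001), and Uxs1, which converts UDP-glucuronate to UDP-xylose, by 0.35 (adjusted p = 0.0026). Cbr4 had -0.22 with TMM (adjusted p = 0.00763) and 0.25 with library size alone (adjusted p = 0.00336). The aldehyde reductase Akr1a1 had -0.13 with TMM (adjusted p = 0.0417) and 0.34 with library size alone (adjusted p = 4.01e-06). The count that fell was 1 to 3 when single mice were left out. It was 1 without any of KO_372, KO_402, KO_404, KO_414, KO_416, KO_425, KO_434, KO_435, WT_406, WT_408, WT_409 or WT_427.

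G6pdx encodes glucose-6-phosphate dehydrogenase, which makes NADPH in the first step of the pentose phosphate pathway (Entrez gene 14381, chrX:74409486-74429161, minus strand). It was at 5.38 to 14.6 CPM in KO livers with a median of 7.78, against 3.53 to 7.88 CPM with a median of 4.47 in WT livers. The groups overlapped, with 4 KO mice above all WT mice, and WT_415 at 7.88 CPM was the highest WT mouse ahead of WT_441 at 6.31 CPM. The fold change was 0.76 on the log2 scale (SE 0.18, edgeR adjusted p = 0.000806). The highest KO mouse, KO_434, also had the highest summed markers of recruited or lipid-associated macrophages at 373 CPM and of Kupffer cells at 575 CPM. The part of those cells in the G6pdx difference was not tested.

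Among 14 genes of NADPH supply 8 rose (57.1%) and 3 fell (21.4%), with a median of 0.53; with library size alone 12 were higher and 0 lower, with a median of 1.00. Me1, cytosolic malic enzyme, averaged 413 ± 109 CPM in KO and 144 ± 42.1 CPM in WT livers, a log2 fold change of 1.53 (edgeR adjusted p = 2.59e-07). Pgd, the second dehydrogenase of the pentose phosphate pathway, rose by 1.51 (adjusted p = 1e-08). Mitochondrial isocitrate dehydrogenase Idh2 rose by 0.82 (adjusted p = 9.96e-09) and NAD kinase Nadk by 0.62 (adjusted p = 3.93e-07). The mitochondrial kinase Nadk2 had -0.42 with TMM (adjusted p = 1.02e-05) and 0.04 with library size alone. Rpe, an epimerase of the non-oxidative branch whose exons overlap Kansl1l by 563 bases, had -0.32 with TMM (adjusted p = 0.000663) and 0.15 with library size alone (adjusted p = 0.0248).

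Hmox1 encodes the inducible heme oxygenase, which opens the heme ring to give biliverdin, iron and carbon monoxide (Entrez gene 15368, chr8:75093618-75100593, plus strand). It was at 17.4 to 42.3 CPM in KO livers with a median of 24.9, against 14.4 to 29.6 CPM with a median of 20.9 in WT livers. The ranges overlapped for most mice, and 2 KO mice lay above all WT mice. The log2 fold change of 0.34 (SE 0.16) did not pass the test (edgeR p = 0.0511, adjusted p = 0.0805). Leaving out single mice gave 0.26 to 0.41 with adjusted p-values of 0.0323 to 0.141. The call was made without KO_391 (0.41, adjusted p = 0.0323), KO_404 (0.40, adjusted p = 0.0413), KO_453 (0.40, adjusted p = 0.0438) or WT_415 (0.41, adjusted p = 0.0341). It was also made with library size alone (0.81, adjusted p = 0.000544). Hmox1 was highest in KO_416 among KO mice and in WT_415 among WT mice.

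**Figure D2:**
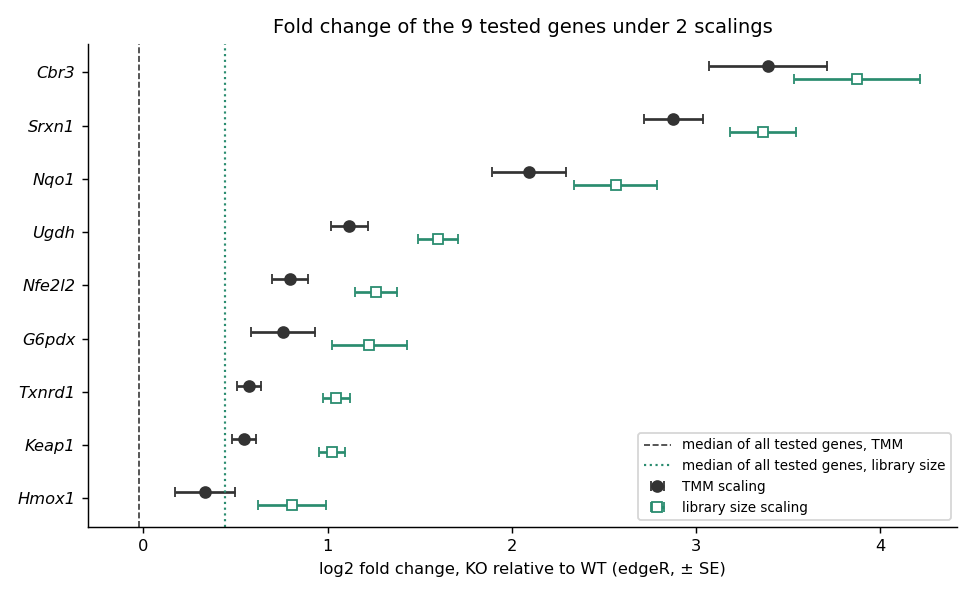
Log2 fold change of the 9 tested genes (x axis, KO relative to WT, edgeR, bars ± SE), with filled circles for TMM, open squares for library size alone and vertical lines at the medians of all tested genes, -0.02 and 0.44. Every gene lies right of the median line of the same scaling, from Hmox1 at 0.34 to Cbr3 at 3.39 with TMM.

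Of 11 genes of heme breakdown, ferritin and heme or iron handling, 5 rose (45.5%) and 4 fell (36.4%). Their median was -0.19 with TMM and 0.28 with library size alone, where 5 were higher and 1 lower. Slc48a1, a heme transporter of endosomes, averaged 157 ± 27.9 CPM in KO and 41.8 ± 2.74 CPM in WT livers, a log2 fold change of 1.91 (edgeR adjusted p = 7.34e-13). Ferritin heavy chain Fth1 rose by 0.47 (adjusted p = 2.43e-07). The heme exporter Flvcr1 rose by 0.98 (adjusted p = 2.84e-06), and 814 bases of its exons overlap A230020J21Rik. Hmox2, the constitutive heme oxygenase, fell by 0.70 with TMM (adjusted p = 9.99e-07) and by 0.23 with library size alone (adjusted p = 0.0212), with 399 bases of its exons shared with Cdip1. Haptoglobin Hp had -0.49 with TMM (adjusted p = 0.00815) and was not called with library size alone (adjusted p = 0.996). Biliverdin reductase Blvra had -0.27 with TMM (adjusted p = 0.017) and 0.21 with library size alone (adjusted p = 0.0536).

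Slc7a11 encodes the light chain of the cystine/glutamate antiporter, which brings in cystine for glutathione synthesis (Entrez gene 26570, chr3:50364936-50443613, minus strand). Too few mice reached the minimum of the filter on low counts for it to be tested. In KO livers it was at 0.042 to 14.1 CPM with a median of 1.54, against 0 to 0.184 CPM with a median of 0 in WT livers. The 10 KO libraries held 863 fragments of the gene and the 10 WT libraries 7, and 7 WT mice were at 0. A count of 3 in those 7 libraries, the limit that a count of 0 allows, corresponds to 0.123 to 0.184 CPM. This limit covers counting error only. KO mice differed widely: KO_416 alone held 361 fragments, 41.8% of the KO total, and KO_391 and KO_402 held 4 and 1. Of the KO mice 8 lay above the highest WT mouse, WT_415. The KO mean was 3.37 ± 4.36 CPM (SD, n = 10), and without KO_416 it was 2.19 ± 2.35 CPM. Fitted without the filter on low counts, where 20.2% of 20914 genes were called higher and 21.0% lower, the log2 fold change was 6.35 (SE 1.08, edgeR adjusted p = 8.02e-05), a value that depends on the few WT counts. An unnamed gene on the opposite strand overlaps 666 bases of Slc7a11 exons.

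Of 5 tested genes of cystine and cysteine supply, 2 rose and 2 fell (40.0% each), with either scaling; the median was -0.06 with TMM and 0.42 with library size alone. Slc3a2, the heavy chain that pairs with the Slc7a11 product and with other amino acid transporters, averaged 148 ± 52.8 CPM in KO and 37.1 ± 3.77 CPM in WT livers, a log2 fold change of 2.00 (edgeR adjusted p = 1.7e-08). The neutral amino acid transporter Slc1a4 rose by 1.13 (adjusted p = 0.000575). The transsulfuration enzymes Cth and Cbs, which make cysteine from homocysteine, fell by 1.30 (adjusted p = 1.46e-05) and by 0.98 (adjusted p = 1.15e-05) with TMM, and by 0.86 and 0.52 with library size alone.

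Of 31 other tested genes commonly listed as NRF2 targets, 25 rose (80.6%) and 2 fell (6.45%), with a median of 0.62; with library size alone 29 were higher and 0 lower, with a median of 1.09. Of the 31, 10 (Blvrb, Cbr1, Fth1, Ftl1, Me1, Pgd, Prdx1, Taldo1, Tkt and Txn1) were also counted in the lists above. Among the other 21, 17 rose and 2 fell, with a median of 0.73. Gpx2, a glutathione peroxidase, averaged 30.4 ± 12.7 CPM in KO and 0.0515 ± 0.0585 CPM in WT livers, with 7682 fragments in the KO and 10 in the WT libraries (edgeR adjusted p = 4.85e-12). The lowest KO mouse was at 7.27 CPM and the highest WT mouse at 0.179 CPM, and 4 WT mice were at 0. Gpx2 thus passed the filter on low counts through the KO mice alone. Gsr, which reduces glutathione disulfide, rose by 1.08 (adjusted p = 2.34e-10). The conjugate exporter Abcc3 rose by 1.44 (adjusted p = 2.42e-09). Gstm3, a glutathione S-transferase, rose by 3.04 (adjusted p = 9.11e-09). Fragments that map to several places were counted in this table, and the part of close copies in the values of the glutathione S-transferase family was not tested. The microsomal transferase Mgst1 had -0.50 with TMM (adjusted p = 0.000654) and -0.02 with library size alone. Osgin1, an oxidative stress-induced growth inhibitor, had -1.33 with TMM (adjusted p = 0.00937) and -0.84 with library size alone (adjusted p = 0.0671). Not called with TMM were Gclm (0.11, edgeR adjusted p = 0.0707), Taldo1 (0.09), Prdx1 (0.06) and Ces1g (-0.07).

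**Figure D3:**
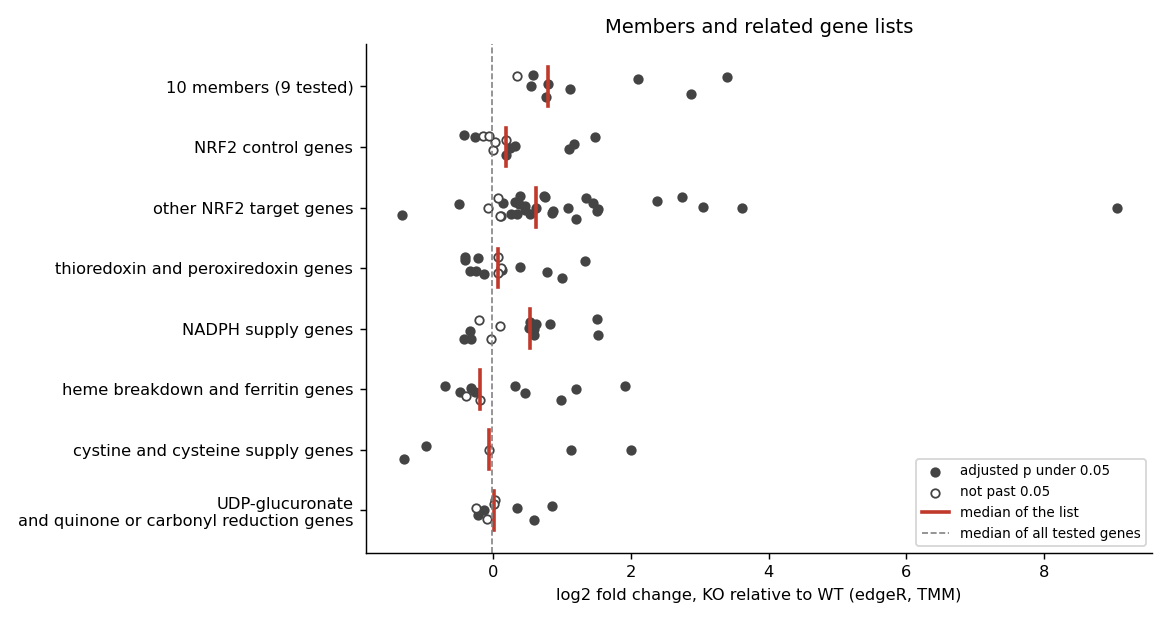
Log2 fold change (x axis, KO relative to WT, edgeR with TMM) of each tested gene in the pathway (top row) and in 7 related lists, filled where the adjusted p was under 0.05, with a red bar at each list's median and a dashed line at the median of all tested genes. The medians run from -0.19 for heme breakdown and ferritin genes to 0.79 for the 9 genes of the top row.

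Levels can be compared between genes only per length. In the authors' deposited RPKM, their own normalized signal per kilobase, which differs slightly from the CPM above in its scaling factors, Ugdh was highest in both groups, at 123 ± 19.7 in KO and 56.2 ± 8.79 in WT livers. Srxn1 was second in KO livers at 89.4 ± 26.3 RPKM and behind 4 of the other genes in WT livers at 12.2 ± 1.53 RPKM. In KO livers Txnrd1 (41.6 RPKM), Nfe2l2 (34.2 RPKM), Hmox1 (16.5 RPKM), Keap1 (15.4 RPKM), Nqo1 (8.99 RPKM), Cbr3 (4.74 RPKM), G6pdx (3.12 RPKM) and Slc7a11 (0.365 RPKM) followed in that order. The ranges of neighbours in this order overlapped except between Nfe2l2 and Hmox1 and between G6pdx and Slc7a11. In WT livers Ugdh was followed by Txnrd1 (27.9 RPKM), Nfe2l2 (19.6 RPKM), Hmox1 (13.0 RPKM), Srxn1, Keap1 (10.5 RPKM), Nqo1 (2.08 RPKM), G6pdx (1.83 RPKM), Cbr3 (0.437 RPKM) and Slc7a11 (0.00369 RPKM). Neighbours there overlapped from Txnrd1 down to Keap1 and between Nqo1 and G6pdx.

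KO_391 was the lowest KO mouse for 7 of the 10 genes, namely Nfe2l2, Keap1, Nqo1, Srxn1, Txnrd1, Hmox1 and Cbr3. The highest values were spread over 5 KO mice. KO_434 was the highest for Srxn1, Cbr3 and G6pdx, KO_416 for Hmox1 and Slc7a11, KO_425 for Nfe2l2 and Txnrd1, KO_453 for Keap1 and Ugdh, and KO_404 for Nqo1. KO_416 was at the same time the lowest KO mouse for Ugdh. KO_391 also had the lowest TMM factor of the KO libraries at 1.05, the highest share of multi-mapping fragments among them at 8.46%, and their lowest summed markers of hepatocytes, stellate cells and fibroblasts, and recruited or lipid-associated macrophages. The part of these measures in its levels was not tested. Among WT mice, WT_415 was the highest for Hmox1, Cbr3, G6pdx and Slc7a11, and WT_441 for Nfe2l2 and Nqo1. These WT libraries had the highest TMM factors of their group, at 0.97 for WT_441 and 0.93 for WT_415. Their shares of multi-mapping fragments were the lowest of the group, at 3.38% for WT_441 and 5.06% for WT_415. Without KO_391 and WT_441, all 9 tested genes were called higher, where 31.0% of 13717 tested genes were and 29.7% were called lower; Hmox1 then had a log2 fold change of 0.41 (edgeR adjusted p = 0.0435).

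**Figure D4:**
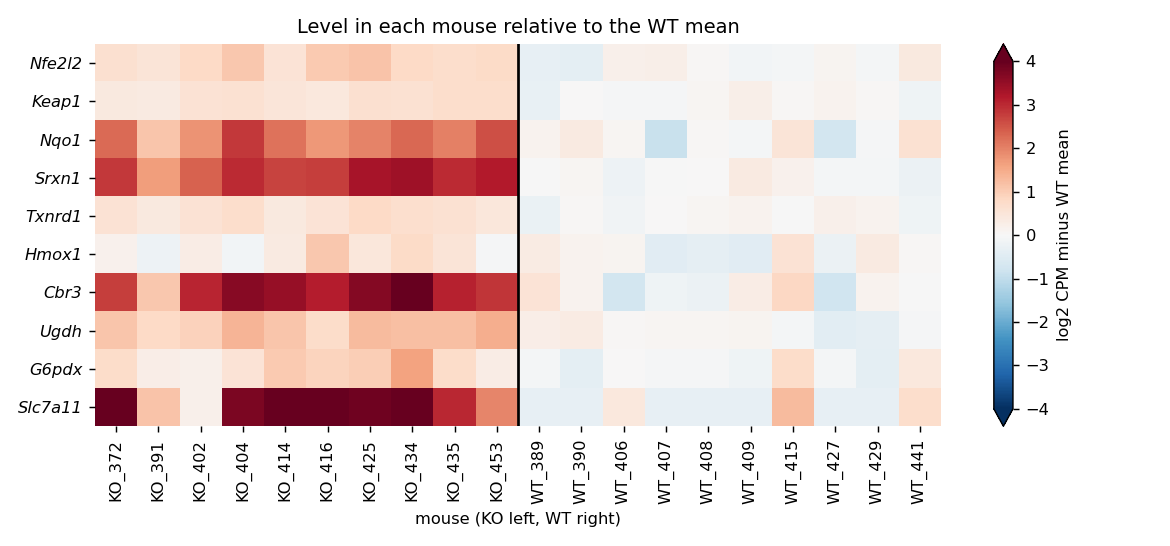
Log2 CPM of each gene (rows) in each mouse (columns, KO left and WT right of the line), minus the mean of the WT mice; red is above and blue below the WT mean, and values past 4 take the end colour. KO_391 is paler than the other KO mice for Nqo1, Srxn1 and Cbr3, and Slc7a11 ranges from near the WT mean in KO_402 to past the scale in KO_416.

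Relations between the genes were computed across mice within each genotype, for 36 pairs of the 9 tested genes in each, 72 in all. In KO livers 34 of 36 Pearson correlations were positive, with a median r of 0.49, and 12 had an unadjusted permutation p under 0.05. None of these passed adjustment over the 72. Many KO correlations were smaller without the mice farthest from the median of the pair's first gene. KO_391 was among those mice for every pair whose first gene was not Nfe2l2. For Nqo1 to Cbr3 r went from 0.66 to 0.03 without KO_391 and KO_404. Without KO_372 and KO_391 that of Keap1 to Cbr3 went from 0.53 to -0.09. Others grew, such as Nfe2l2 to Hmox1, from 0.34 to 0.76 without KO_404 and KO_425. The relation of Nqo1 to Ugdh had r = 0.83 and rho = 0.82 (n = 10, permutation p = 0.00268 and 0.00579, adjusted 0.0965 and 0.134), and r was 0.82 without KO_391 and KO_404. That of Srxn1 to Cbr3 had r = 0.85 and rho = 0.64 (n = 10, permutation p = 0.00536 and 0.0545, adjusted 0.129 and 0.254), and r was 0.57 without KO_391 and KO_402, so its size rested on them. In WT livers 16 of 36 were positive, with a median r of -0.07. One of these, Keap1 to Txnrd1, passed for Pearson's r (r = 0.88, n = 10, permutation p = 0.00035, adjusted 0.0252) and not for Spearman's rho (rho = 0.88, permutation p = 0.00157, adjusted 0.113). It was 0.85 without WT_389 and WT_409. Pairs share libraries, depth and scaling factors, and with library size alone 8 KO pairs and 1 WT pair passed. The difference between the genotypes in these correlations was not tested.

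**Figure D5:**
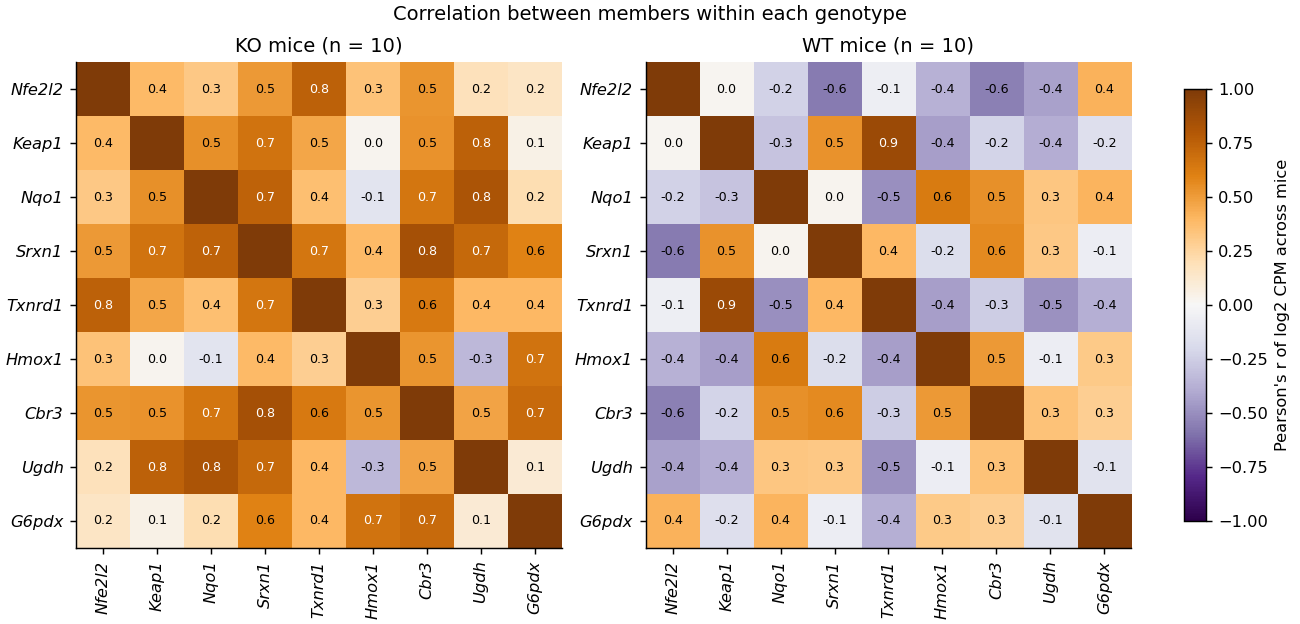
Pearson's r of log2 CPM (TMM) across mice for each pair of the 9 tested genes, in KO mice (left, n = 10) and WT mice (right, n = 10), orange for positive and purple for negative. The KO matrix is mostly orange, with 34 of 36 pairs positive, and the WT matrix is mixed, with 16 of 36 positive.

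The genes whose levels were most like those of each member were sought by Pearson's r of log2 CPM after subtraction of each genotype's mean, over 20 mice and among 11376 genes. This is a description, given without a p, and all points share library and scaling factor. For Srxn1 they were Sqstm1, Mta3 and Prune1, each at r = 0.89. For Nfe2l2 they were Rarg, a retinoic acid receptor (0.89), Ttl, a tubulin tyrosine ligase (0.85), and Gm15408 (0.83). For Keap1 they were Wbp2 (0.84), Eif4ebp1, a translation repressor (0.82), and Abhd17a (0.81). For Txnrd1 they were Arf3 (0.82), Fzr1 (0.78) and Ywhag (0.78). For Nqo1 they were Acta2, a smooth muscle actin (0.79), Nol3 (0.78) and Gstm3 (0.78). Ugdh was most like Stra6l (0.84), Psmd14, a proteasome subunit (0.83), and Kctd9 (0.83). G6pdx was most like Iqgap1, a cytoskeletal scaffold (0.87), Msn, which encodes moesin (0.83), and Hid1 (0.82). Hmox1 was most like Snx5 (0.85), Marco, a macrophage scavenger receptor of the Kupffer cell list (0.85), and Esam, an endothelial adhesion molecule (0.83). The part of macrophages and endothelial cells in the Hmox1 values was not tested.

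The authors' deposited table, from their own test, gives log2 fold changes of KO relative to WT of 0.79 for Nfe2l2, 0.54 for Keap1, 1.80 for Nqo1, 2.78 for Srxn1 and 0.57 for Txnrd1. The authors' deposited table gives 2.00 for Cbr3, 1.12 for Ugdh, 0.64 for G6pdx, 1.54 for Slc7a11 and 0.32 for Hmox1. These fold changes equal, within 1e-09, the KO minus WT difference in mean log2(signal + 1) of the deposited normalized signal. A pseudocount of 1 lowers the fold of genes with low counts, and Cbr3 and Slc7a11 were at 3.39 and 6.35 in the edgeR fits on counts. In the authors' deposited table the false discovery rate is 0.0746 for Hmox1 and at most 0.00945 for the other 9 genes.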

How the data were processed

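Fragment counts were deposited by Entrez gene without normalization, and they sum per mouse to the assigned fragments of their statistics. The deposited normalized signal is each count divided by 1 factor per mouse, and the RPKM values deposited divide this signal by gene length in kilobases. Names of the deposited files give Rsubread with RefSeq annotation of mm10 and the test ROTS, while HISAT2 2.0.5 and DESeq2 come from the submitters' processing notes. Multi-mapping fragments were counted, and no source used here gives the strand setting. Per the file headers, the authors' table holds per gene a p-value, a false discovery rate and a log2 fold change. A further 23 columns of fragment statistics were not used.

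Counts were tested with edgeR 4.0.16 in R 4.3.3 (TMM, filterByExpr with a minimum count of 10 and a minimum total of 15, robust quasi-likelihood F test, Benjamini-Hochberg adjustment over 13670 genes, threshold 0.05). The procedure was also run on simulated counts in which few genes differed between the groups. That run cannot test the scaling where much of the table differs, as it does here. A prior count of 2 entered log2 CPM. Each SE belongs to the fitted fold change. Mice are separate animals per the labels, which name no litter or batch. Depth was 16693195 to 29124124 assigned fragments per mouse.

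The 10 genes, 7 related lists and 9 marker lists were chosen with earlier results of these data known. Named genes were all 10 members, up to 4 of each related list with the smallest adjusted p, up to 2 per list called against its majority, the 3 most alike genes per member whose mean log2 CPM reached 1, and Hsd17b12; Cbr3 is under that level and was not ranked. Marker and Gpx2 count details, and the other NRF2 targets named as not called, were chosen after values were seen. Alternatives were DESeq2 1.42.0 and its size factors, upper-quartile factors, library size alone, no filter, a stricter filter (10 mice at or above 1 CPM), limma 3.58.1 (voom with sample weights, and trend on log2(RPKM + 0.1) and log2(RPKM + 1)), and leaving out each mouse. Leaving out KO_391 and WT_441 together, and counts without genes that stand in more than 1 list, were added after seeing the data.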

Additional observations from a re-analysis of the deposited data

Results flagged for a closer look

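Cbr3 in KO_391 lay apart from the other KO mice. Its log2 CPM was 0.27 there, from 28 fragments, and the next lowest KO mouse was at 1.95. The gap was 0.51 of the whole KO range, above Dixon's 95% critical value for 10 samples. Among 20 groups checked (10 genes in KO and WT mice) this was the only one, and chance flags about 1 in 20 groups. Without KO_391 the log2 fold change of Cbr3 was 3.54, against 3.39 with all mice.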

How the results depend on the processing

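No paired analysis was possible because KO and WT mice share no numbers in the labels. Of the 9 tested genes, 8 kept direction and call under all 30 alternatives, and Hmox1 under 24 (log2 fold changes of 0.26 to 0.81). It was called higher under 6, given with its values above. The ranges over the alternatives were 0.75 to 1.26 for Nfe2l2, 0.51 to 1.02 for Keap1, 1.67 to 2.57 for Nqo1, 2.72 to 3.36 for Srxn1, 0.54 to 1.05 for Txnrd1, 1.89 to 3.87 for Cbr3, 1.08 to 1.599 for Ugdh and 0.52 to 1.23 for G6pdx. With library size alone the median of the 9 genes was 1.26. With that scaling 12 NRF2 control genes were higher and 0 lower (median 0.64), 0 other targets were lower (median 1.09), 11 thioredoxin genes were higher and 0 lower (median 0.54), and 0 NADPH supply genes were lower (median 1.00). Likewise 1 heme gene was lower (median 0.28), the cystine list had a median of 0.42, and 8 UDP-glucuronate and carbonyl genes were higher and 0 lower (median 0.48). The NADPH median was 0.38 with limma on log2(RPKM + 1). The count of UDP-glucuronate and carbonyl genes that fell was 1 with DESeq2 size factors, with no filter and with the stricter filter, and 3 with upper-quartile factors, limma-voom and both limma-trend settings. Leaving out single mice, it was 1 to 3, the count of NRF2 control genes that fell was 1 to 2, and the Nfe2l2 to Keap1 difference was 0.21 to 0.31. NRF2 control genes that fell numbered 1 without KO_372, KO_404, KO_414, KO_416, WT_406 or WT_415. With library size alone 8 KO relations passed, against 0 with TMM. The causes were not tested. Depth limits Slc7a11 and Cbr3 in WT livers, where few fragments were counted.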
